A study of Mus musculus with 14 samples.

Results

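The late neutrophil granule genes described here were 7 genes, Ltf, Camp, Ngp, Chil3, Mmp8, Fcnb and Cd177, of the 55487 genes in the count tables. They were named as genes of the secondary and tertiary granules or of the late neutrophil, and each matched 1 identifier. RNA sequencing covered 14 libraries in all. LSK (Lin-Sca1+c-kit+) cells, the stem cell fraction of mouse bone marrow, and LK (Lin-c-kit+) cells, its progenitor fraction, were sorted from C57BL/6 mice whose blood cells carried a heterozygous Jak2V617F allele, the kinase mutation of myeloproliferative neoplasms, in both treatment groups. Per the study's methods the allele was switched on by an interferon-inducible Cre (Mx1Cre) and the marrow was transplanted into irradiated C57BL/6 recipients, which may have kept some host cells. Each population has 3 libraries from recipients given PBS and 2 from recipients given IL-1β, injected intraperitoneally at 0.5 μg per dose, 3 doses per week, for 16 weeks. Mesenchymal stromal cells (MSC) were grown from C57BL/6 marrow for 21 days and given PBS (2 libraries) or 5 ng/ml IL-1β (2 libraries) for 72 h. The study's methods describe its mice and its marrow donors in general as a few weeks old, and the age of the animals behind these libraries was not given separately. For the sorted cells the study's figure legends give n = 3 (PBS) and n = 2 (IL-1β) beside the treated mice, which reads as a number of mice. Nothing in the labels says that libraries came from separate mice or cultures. The p-values therefore measure the spread between libraries, which may be technical.

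Neutrophils fill their granules in a fixed order as they mature. Myeloblasts and promyelocytes make the primary granule proteins, such as myeloperoxidase and elastase, myelocytes make the secondary granule proteins, and still later cells make the gelatinase granules and surface receptors. The transcription factor C/EBPε (Cebpe) is required for the secondary granule program. Ltf encodes lactoferrin, an iron-binding protein, Camp encodes the cathelicidin antimicrobial peptide and Ngp a cystatin-like neutrophilic granule protein. Chil3 encodes a chitinase-like lectin also known as Ym1, Fcnb a ficolin that binds sugars on microbes, Cd177 a surface protein of neutrophils and Mmp8 the neutrophil collagenase. LSK cells lie before all of these stages, and LK cells reach to the early granulocyte progenitors.

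Camp, Ngp and Ltf are neighbours on chromosome 9. In the coordinates of the deposited tables (GRCm38), Camp lies at chr9:109847379-109849617 on the minus strand, Ngp at chr9:110419747-110423012 on the plus strand and Ltf at chr9:111019271-111042767 on the plus strand. The stretch from Camp to Ltf spans 1.2 Mb and holds 28 other protein-coding genes. Mmp8 lies far from them on the same chromosome, at chr9:7558456-7568485 on the plus strand, within the cluster of matrix metalloproteinase genes. Chil3 lies at chr3:106147554-106167564, Fcnb at chr2:28076378-28084885 and Cd177 at chr7:24743983-24760311, all on the minus strand. The promoter windows, from 250 bases before to 50 bases after the RefSeq start, were read from RefSeq (GRCm38.p6) for all 7 genes. They are shown for Chil3, the gene with the largest change in LK cells, for Ngp, one of the chromosome 9 neighbours, and for Camp and Mmp8, the pair that rose in the stromal cultures. The windows are chr3:106167515-106167814 (minus strand), chr9:110419558-110419857 (plus strand), chr9:109849407-109849706 (minus strand) and chr9:7558179-7558478 (plus strand). Sequences run 5′ to 3′, and capitals mark matches to TTNNGNAA on either strand, the core letters of a C/EBP site.
Chil3: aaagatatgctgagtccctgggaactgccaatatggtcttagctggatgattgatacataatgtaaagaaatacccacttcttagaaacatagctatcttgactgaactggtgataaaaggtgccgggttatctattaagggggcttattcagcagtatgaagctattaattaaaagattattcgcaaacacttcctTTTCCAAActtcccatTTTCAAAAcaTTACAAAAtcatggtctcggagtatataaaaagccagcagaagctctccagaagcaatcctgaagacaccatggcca
Ngp: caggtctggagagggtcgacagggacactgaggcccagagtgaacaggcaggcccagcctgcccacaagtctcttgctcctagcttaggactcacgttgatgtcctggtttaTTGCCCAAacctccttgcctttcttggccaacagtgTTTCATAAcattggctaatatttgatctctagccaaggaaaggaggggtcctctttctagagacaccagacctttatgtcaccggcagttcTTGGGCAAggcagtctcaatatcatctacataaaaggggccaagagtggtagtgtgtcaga
Camp: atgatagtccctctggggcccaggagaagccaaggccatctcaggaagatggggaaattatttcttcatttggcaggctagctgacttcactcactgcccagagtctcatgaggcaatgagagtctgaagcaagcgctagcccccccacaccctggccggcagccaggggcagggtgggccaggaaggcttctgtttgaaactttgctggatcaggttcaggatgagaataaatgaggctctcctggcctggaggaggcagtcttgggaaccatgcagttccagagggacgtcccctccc
Mmp8: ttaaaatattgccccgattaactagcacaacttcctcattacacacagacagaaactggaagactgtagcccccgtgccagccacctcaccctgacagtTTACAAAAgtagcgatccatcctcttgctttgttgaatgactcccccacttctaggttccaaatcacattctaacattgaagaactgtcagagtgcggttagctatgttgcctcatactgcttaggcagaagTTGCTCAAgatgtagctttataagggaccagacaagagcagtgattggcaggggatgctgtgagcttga
A match to TTNNGNAA stood in the windows of 6 of the 7 genes and in 40.7% of all 32851 promoter windows. Chil3 and Ngp held 3 matches each, Ltf, Mmp8 and Fcnb 2 each, Cd177 held 1 and Camp held none. Counted from the start, the 3 matches of Chil3 lay close together, from -53 to -20, the last match of Ngp covered -11 to -4 and the last match of Mmp8 covered -19 to -12. Matches to GAGGAA, the letters of a PU.1 site, stood in the windows of Ltf, Mmp8 and Cd177 and in 28.3% of all windows, and overlapped no match to TTNNGNAA. One spelling of an NF-kB site had a match in 1.63% of all windows and in none of the 7. A match is a string of letters and was not tested as a binding site.

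Sequencing depth differed between treatments. Counted read pairs numbered 12172400 to 16271408 in the PBS libraries of LSK cells, against 8641124 and 4393233 in the IL-1β libraries. The PBS libraries of LK cells held 12804883 to 18544346 and the IL-1β libraries 7652483 and 6367352. In both sorted populations IL-1β thus went with the lower depth, and depth and treatment cannot be told apart there. The MSC totals were 5834909 and 13155033 (PBS) and 30871055 and 11681794 (IL-1β). Levels are given as CPM (counts scaled to library size) after TMM normalization, which adjusts for differences in composition between libraries. TMM was run over the 10 LSK and LK libraries together and over the 4 MSC libraries separately, so levels set across these sets share no common scale. The sorted cells fitted their gates: Ly6a, which encodes Sca1, stood at 14.8 to 41.7 CPM in the LSK libraries and at 0.258 to 1.99 in the LK libraries, and Kit at 294 CPM or more in all 10. The MSC cultures did not hold stromal cells alone. The 13 monocyte and macrophage genes examined summed to 10849.5 to 17207 CPM there, above the 1482 to 4425 CPM of the 11 mesenchymal genes, with Mpeg1 or C1qb as the most abundant macrophage gene. The results named MSC below are therefore those of a mixed culture. The macrophage list had 12 of 13 genes tested in MSC and 6 called higher with IL-1β, and the mesenchymal list had 10 of 11 tested, with 1 called higher and 1 called lower.

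The late granule genes were rare transcripts in all PBS libraries. Their 7 levels summed to 9.54, 5.73 and 1.16 CPM in the 3 LSK libraries with PBS, 12.1, 2.68 and 4.6 CPM in the 3 LK libraries with PBS, and 2.5 and 1.58 CPM in the 2 MSC libraries with PBS. With IL-1β the sums were 65.4 and 19.4 CPM in LSK cells, 277 and 99.6 CPM in LK cells, and 15.9 and 15.4 CPM in MSC. Each IL-1β sum was above every PBS sum of its population. Per length, Ngp had the highest mean level in both sorted populations with PBS, 1.18 CPM per kb in LSK and 1.61 CPM per kb in LK cells, but this rank rested on library 1. Ngp stood at 2.97, 0.507 and 0.0477 CPM per kb in LSK and at 4.31, 0.169 and 0.353 CPM per kb in LK cells, and in libraries 2 and 3 of LK cells it was below Fcnb, at 0.809 and 0.912 CPM per kb. With IL-1β, Chil3 led in LK cells at 68.2 CPM per kb, ahead of Ngp at 25.9, Camp at 7.4, Fcnb at 6.76, Cd177 at 6.64, Ltf at 3.24 and Mmp8 at 0.247. Neighbours in this order overlapped over the 2 libraries, except Ltf and Mmp8. In LSK cells with IL-1β the order began with Ngp at 10.0 CPM per kb and Chil3 at 6.34, whose library ranges overlapped. Mpo, the primary granule gene of myeloperoxidase, was far above them, with means of 3553 CPM per kb in LK cells and 2112 CPM per kb in LSK cells with IL-1β. Not every primary granule gene was: Prss57, a serine protease gene, stood at 89.8 and 78.4 CPM per kb in LK cells with IL-1β, within the range of Chil3.

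**Figure D1:**
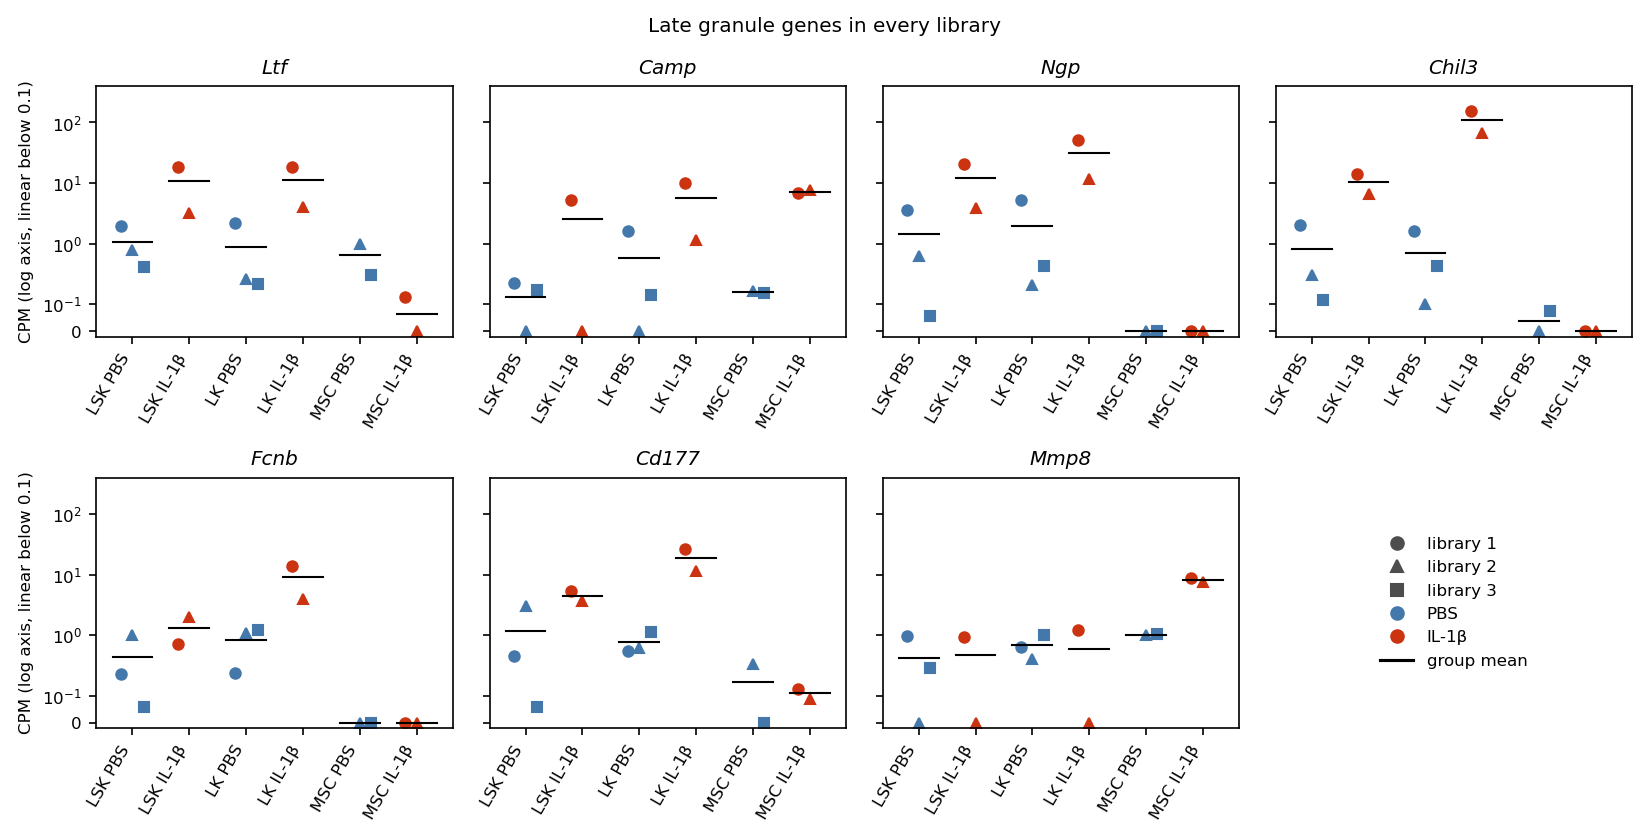
CPM of each of the 7 late granule genes (vertical log axis, linear below 0.1) in every library, by population and treatment. Symbols give the library number in the labels, colours the treatment and lines the group mean. Chil3 reached 155 and 67.4 CPM in LK cells with IL-1β, and Camp and Mmp8 were raised in the MSC cultures, where Ngp and Fcnb had no counts.

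The comparison of treatments in LK cells asked which granule genes changed in progenitors of mutant mice given IL-1β. Chil3, Cd177 and Fcnb rose, and none of the 7 genes was called lower. A gene was called when edgeR's quasi-likelihood test gave a Benjamini-Hochberg adjusted p under 0.05 over all genes tested and the fitted log2 change exceeded 0.5 up or down. All 7 genes passed the filter on low counts and 3 of the 7 were called higher, where 6.77% of the 12835 genes tested were called higher and 2.57% lower. PBS counts were few, at 20, 2 and 6 for Chil3 and 7, 12 and 16 for Cd177. Such genes can pass the filter through the IL-1β group, where they are high. Shares of the 7 called or not overlapping, here and in LSK cells, are therefore no support by themselves. In bulk libraries a larger share of granule-making cells and more RNA per cell cannot be told apart.

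Chil3 stood at 1.6, 0.103 and 0.431 CPM in the 3 PBS libraries of LK cells and at 155 and 67.4 CPM in the IL-1β libraries. The groups were far apart, with 28 counts over the PBS libraries and 1586 over the IL-1β libraries. The log2 fold change was 7.45 ± 0.79 (SE, n = 3 and 2; edgeR adjusted p = 0.0102), about 175-fold. With single libraries left out, it ran from 6.67 to 8.79. Without LK PBS library 3 or LK IL-1β library 1, the adjusted p of Chil3 was 0.0759 and 0.0787. Its near-identical relative Chil4 had no count in any of the 14 libraries, and read pairs that fit both genes would not have been counted by featureCounts' default settings.

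Cd177 stood at 0.559, 0.619 and 1.15 CPM with PBS and at 26.3 and 11.4 CPM with IL-1β. Every IL-1β library lay well above every PBS library, and the log2 fold change was 4.6 ± 0.47 (edgeR adjusted p = 0.002). With single libraries left out, the change ran from 3.86 to 5.08. Cd177 was called under 14 of the 15 alternatives run. Its call was lost when both libraries numbered 1 were left out, a fit with a single IL-1β library. Fcnb stood at 0.24, 1.08 and 1.22 CPM with PBS and at 14.1 and 4.02 CPM with IL-1β. The groups did not overlap, although the IL-1β libraries differed between themselves by more than the gap from the lower one to the highest PBS library. Its log2 fold change was 3.38 ± 0.7 (edgeR adjusted p = 0.0247). The call of Fcnb was lost without LK IL-1β library 1 (log2 fold change 2.21, adjusted p = 0.349), without LK PBS library 1 (adjusted p = 0.0536) and without LK PBS library 2 (adjusted p = 0.0889).

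The 3 neighbours on chromosome 9 were not called, and their log2 fold changes moved widely when single libraries were left out, from 1.0 to 6.3 for Camp, from 2.58 to 6.67 for Ngp and from 2.21 to 5.5 for Ltf. Ngp stood at 5.27, 0.206 and 0.431 CPM with PBS and at 51.8 and 11.6 CPM with IL-1β (log2 fold change 4.11 ± 1.5, edgeR adjusted p = 0.21). Ltf stood at 2.16, 0.258 and 0.215 CPM with PBS and at 18.3 and 4.02 CPM with IL-1β (log2 fold change 3.75 ± 1.08, edgeR adjusted p = 0.0918). For both genes each IL-1β library lay above each PBS library. Ltf and Ngp were both called without LK PBS library 1, which had the high PBS values (edgeR adjusted p = 0.0263 and 0.0361). Leaving out that library favours a call, and over the 15 alternatives run Ltf was called under 3 and Ngp under 2. Camp stood at 1.6, 0 and 0.144 CPM with PBS and at 10.1 and 1.13 CPM with IL-1β. These groups overlapped, and the log2 fold change of 3.38 ± 1.5 was not called (edgeR adjusted p = 0.238). Mmp8 was the exception in size: it stood at 0.639, 0.412 and 1.01 CPM with PBS and at 1.2 and 0 CPM with IL-1β (log2 fold change -0.1 ± 1.07, edgeR adjusted p = 0.964). Its counts were 8 to 14 with PBS and 9 and 0 with IL-1β, so few that a moderate change may have been missed. In all, 5 of the 7 genes had every IL-1β library above every PBS library, where 23.4% of the genes tested did.

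None of the 28 other protein-coding genes between Camp and Ltf was called in LK cells, where 15 were tested, with a median log2 fold change of 0.01. In LSK cells 16 of them were tested and 0 were called. By edgeR's unadjusted p, 4 passed 0.05 in LK cells and 3 in LSK cells, where 24.7% and 18.5% of all genes tested did.

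In LSK cells, where the same question was put to the stem cell fraction, 4 of the 7 genes were higher in every IL-1β library than in any PBS library, and none was called. LSK cells of the IL-1β mice had 42 of 13132 genes called higher (0.32%) and 41 called lower (0.312%), so the test called few genes of any kind there. Of the 7 genes, 6 were tested and 0 were called in either direction by edgeR's quasi-likelihood test, while Ltf, Ngp and Chil3 had unadjusted p-values of 0.00359, 0.0228 and 0.00506, a level under 0.05 that 18.5% of the genes tested reached. DESeq2 called 2 of the 7 higher, where it called 3.37% of the genes with an adjusted p higher.

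Chil3 stood at 2.04, 0.31 and 0.116 CPM in the PBS libraries of LSK cells and at 14.1 and 6.62 CPM in the IL-1β libraries, without overlap, and its log2 fold change was 3.73 ± 1.03 (edgeR adjusted p = 0.121). Ltf stood at 1.97, 0.775 and 0.408 CPM with PBS and at 18.6 and 3.19 CPM with IL-1β (log2 fold change 3.45 ± 0.9, edgeR adjusted p = 0.109). Ngp stood at 3.64, 0.62 and 0.0582 CPM with PBS and at 20.6 and 3.92 CPM with IL-1β (log2 fold change 3.19 ± 1.18, edgeR adjusted p = 0.202). These log2 fold changes moved widely when single libraries were left out. They ran from 3.05 to 5.61 for Chil3, from 1.63 to 4.25 for Ltf and from 1.5 to 5.24 for Ngp. Without LSK PBS library 1, Chil3 was called (log2 fold change 5.61, edgeR adjusted p = 0.0299). That library held its highest PBS value, so leaving it out favours a call, and Chil3 was called under 5 of 15 alternatives. For Ngp the gap between the lower IL-1β library and the highest PBS library was small.

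Cd177 stood at 0.454, 3.02 and 0.0582 CPM in LSK cells with PBS and at 5.32 and 3.68 CPM with IL-1β (log2 fold change 1.97 ± 1.24, edgeR adjusted p = 0.418). Its log2 fold change ran from 1.41 to 4.23 with single libraries left out. Fcnb overlapped between treatments, at 0.227, 1.01 and 0.0582 CPM with PBS and 0.71 and 1.96 CPM with IL-1β (log2 fold change 1.61 ± 1.4, edgeR adjusted p = 0.563). Camp was not tested, with 3, 0 and 3 counts in the PBS libraries and 44 and 0 counts in the IL-1β libraries, so that 1 library held all its IL-1β counts. Mmp8 was at 0.985, 0 and 0.291 CPM with PBS and at 0.947 and 0 CPM with IL-1β (log2 fold change 0.38 ± 1.71, edgeR adjusted p = 0.927). Ltf, Ngp, Chil3 and Cd177, 4 of the 7, had both IL-1β libraries above all PBS libraries, where 16.7% of the genes tested did.

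**Figure D2:**
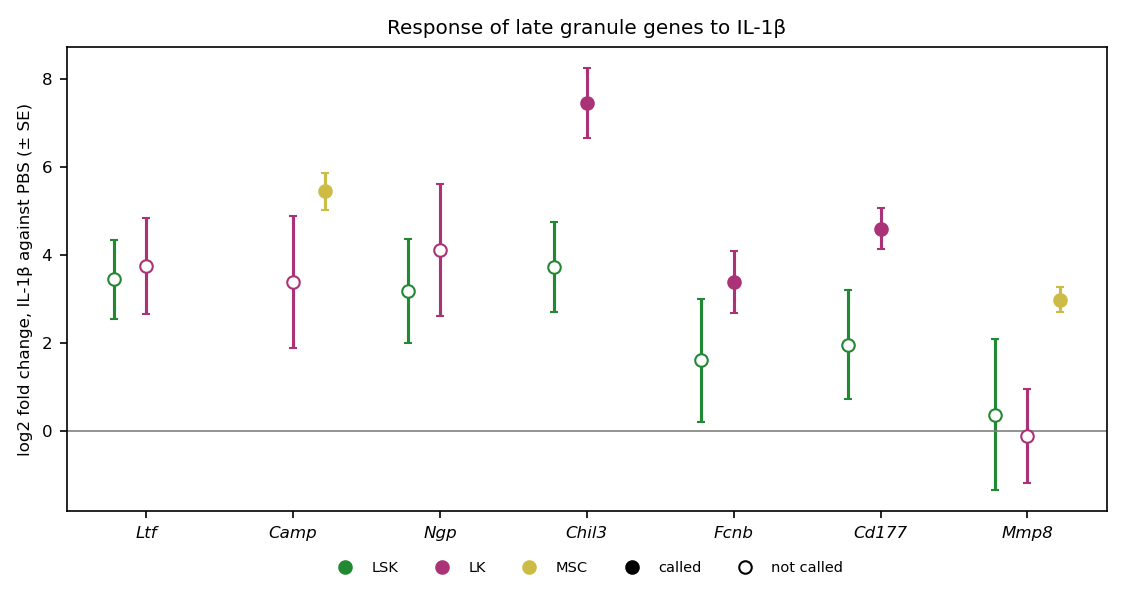
Log2 fold change of IL-1β against PBS (vertical axis, with SE bars) for the genes tested in LSK, LK and MSC libraries. Filled points were called. Chil3 in LK cells (7.45) and Camp in MSC (5.45) were the largest, and Mmp8 was called in MSC and lay near 0 in the sorted cells.

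The spread within groups followed the library numbers for some of the genes and not for others. Ltf, Ngp and Chil3 were highest in library 1 in all 4 groups of sorted cells, with PBS as well as with IL-1β, and Mmp8 was in 3 of 4. Camp was too, except in LSK cells with PBS, where libraries 1 and 3 had 3 counts each. Fcnb was highest in library 1 in 1 of the 4 groups and Cd177 in 2 of 4. In LSK cells with PBS, Fcnb and Cd177 peaked in library 2. Between libraries with the same number, Ngp was higher with IL-1β by 5.66 times (library 1) and 6.33 times (library 2) in LSK cells and by 9.83 and 56.2 times in LK cells. Ltf was higher by 9.43 and 4.11 times in LSK cells and by 8.51 and 15.6 times in LK cells. Cd177 was higher by 11.7 and 1.22 times in LSK cells and by 47.1 and 18.5 times in LK cells. Fcnb in library 2 was higher by 1.95 times in LSK and 3.71 times in LK cells. Mmp8 did not follow the others, with a ratio of 0.961 in library 1 of LSK cells, 1.87 in library 1 of LK cells, and 8 counts with PBS against 0 with IL-1β in library 2 of LK cells. The numbers are labels, and nothing in the sources used here says that they mark a shared animal or day.

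Across the 10 sorted libraries the log2 CPM of Ltf and Ngp ran together (Pearson r = 0.96), as did Ngp and Chil3 (r = 0.94) and Fcnb and Cd177 (r = 0.9). Fcnb with Ltf gave r = 0.49 and Mmp8 with Chil3 gave r = 0.05. These coefficients describe libraries that share treatment, population and depth, and the genes with few counts carry more noise.

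In the MSC cultures, where the comparison asked how stromal cells from C57BL/6 marrow changed with IL-1β in vitro, Camp and Mmp8 rose and the rest of the granule genes were at or near 0. These 2 genes were the only ones of the 7 that passed the filter on low counts. Both were called higher, where 7.14% of the 13239 genes tested were called higher and 4.31% lower. A gene with few PBS counts passes such a filter only through the group where it is high, so the count of 2 of 2 is no support by itself.

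Camp stood at 0.167 and 0.151 CPM with PBS, which are 1 and 2 counts, and at 6.79 and 7.59 CPM with IL-1β, which are 207 and 86 counts. The IL-1β libraries were alike and far above the PBS libraries. The ratio of the summed counts was 45 with an exact 95% interval of 15.3 to 219.5, which covers counting error only. edgeR gave a log2 fold change of 5.45 ± 0.42 (n = 2 and 2; adjusted p = 0.00256), a value that depends on the prior count where PBS counts are so few. Mmp8 stood at 1.0 and 1.05 CPM with PBS and at 8.85 and 7.68 CPM with IL-1β, again without overlap and with close replicates. Its log2 fold change was 2.99 ± 0.29 (edgeR adjusted p = 0.00468), about 7.97-fold. When either IL-1β library was left out, the PBS pair alone gave the spread and few genes of any kind were called (38 and 80 higher, against 945). Neither gene was called then, with edgeR adjusted p-values of 0.0604 to 0.158, and the log2 fold changes stayed between 5.37 and 5.5 for Camp and between 2.89 and 3.09 for Mmp8. Over all tested genes, 31.3% had both IL-1β libraries above both PBS libraries.

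Ngp and Fcnb had 0 counts in all 4 MSC libraries, which allows a level of up to 0.0491 CPM over the libraries together (3 counts). Chil3 had 1 count in all and Cd177 had 2 counts with PBS and 5 with IL-1β. Ltf was at 1.0 and 0.301 CPM with PBS and at 0.131 and 0 CPM with IL-1β, or 10 counts against 4, and was too low to be tested. The primary granule genes were nearly absent as well, with sums of 1.17 to 2.26 CPM over 6 genes in the MSC libraries, and Cebpe had counts in 1 of the 4 libraries only (0.131 CPM). Of the 15 mature neutrophil genes, 7 were tested in these cultures, 5 were called higher (Fpr1, Trem1, Ifitm6, Csf3r and Clec4d) and 1 lower (Anxa1). Ly6g and S100a9 were at 0 counts in all 4 libraries, while Fpr1, a formyl peptide receptor that macrophages also carry, stood at 0 and 0.226 CPM with PBS and 31.6 and 29.4 CPM with IL-1β.

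Other granule genes moved with Camp and Mmp8 in MSC. Of 14 other secondary and tertiary granule genes, 10 were tested, 6 were called higher and 0 lower, with a median log2 fold change of 1.12 against 0.0 over all genes tested. Lcn2, which encodes the iron-scavenging lipocalin of secondary granules, stood at 0.667 and 0.828 CPM with PBS and at 50.7 and 54.5 CPM with IL-1β (log2 fold change 6.07 ± 0.19, edgeR adjusted p = 0.000268). Hp, which encodes haptoglobin, rose by a log2 fold change of 5.22 ± 0.73 (edgeR adjusted p = 0.0247), and Slpi, a protease inhibitor, by 4.15 ± 0.3 (edgeR adjusted p = 0.00196). Among 8 close relatives of the 7 genes, 4 were tested and 2 called: the collagenase Mmp13 rose from 100 and 34.9 CPM to 469.6 and 491 CPM (edgeR adjusted p = 0.043), and Trf, which encodes transferrin, rose by 0.69 ± 0.12 on the log2 scale (edgeR adjusted p = 0.0215). Mmp9 did not pass the test (adjusted p = 0.788). Lyz2, a macrophage gene that is also among the granule genes called higher above, went from 7133 and 4803 CPM to 19873 and 20803 CPM (edgeR adjusted p = 0.00865). Whether the rise in macrophage genes had a part in the rise of Camp and Mmp8 was not tested.

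**Figure D3:**
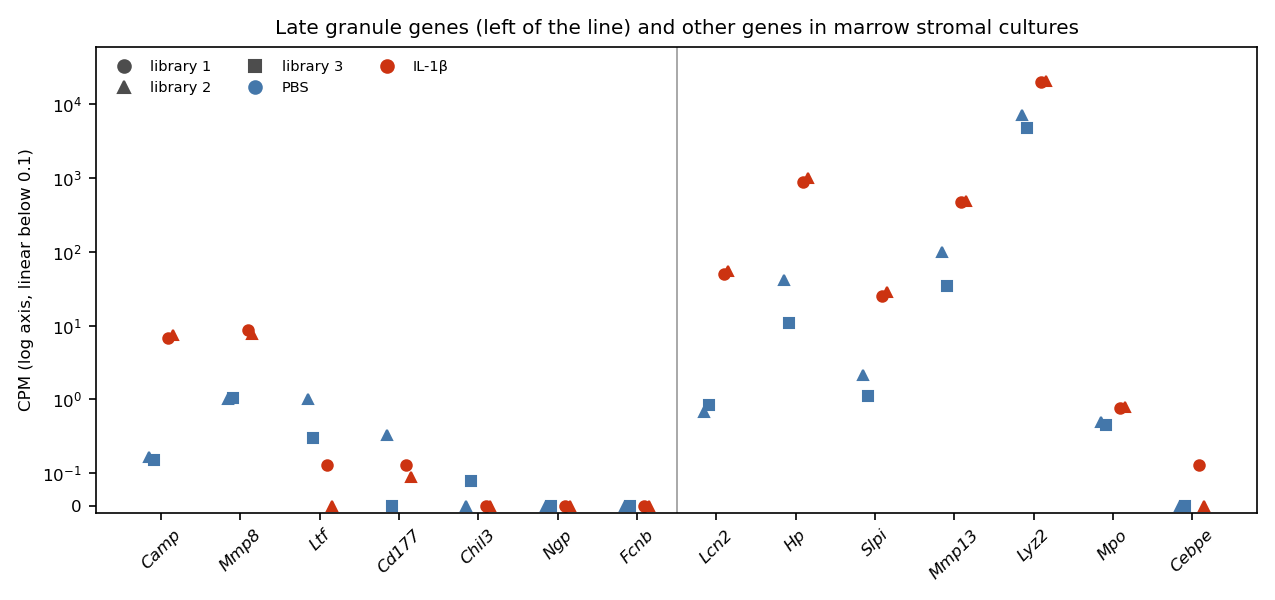
CPM in the 4 MSC libraries (vertical log axis, linear below 0.1) of the 7 late granule genes, left of the line, and of 7 other genes. Camp and Mmp8 rose with IL-1β together with Lcn2, Hp, Slpi, Mmp13 and Lyz2, while Ngp and Fcnb had no counts and Mpo and Cebpe stayed under 1 CPM.

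LK and LSK cells were compared to ask whether the genes differed between progenitors and stem cells. With PBS, 0 of the 7 genes was called between LK and LSK cells by edgeR, 0 had an unadjusted p under 0.05 (42.9% of the genes tested did), and DESeq2 called 0 (35.4% of all genes with an adjusted p). The libraries of the populations overlapped for each of the 7. Every LK library lay above every LSK library for 0 of the 7 and for 21.8% of the genes tested. The share of genes with every LK library below every LSK library was not counted. At the same time 12.4% of the 13839 genes tested were called higher in LK cells and 19.4% lower, so the contrast itself was broad. The standard errors of the 7 genes here ran from 0.9 (Cd177) to 1.65 (Camp) on the log2 scale. A several-fold difference between LK and LSK cells may thus have been missed. All 11 stem and early progenitor genes were called lower in LK cells and all 12 erythroid genes were called higher, with medians of -3.1 and 3.28 on the log2 scale.

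With IL-1β, 2.27% of the genes tested were called higher in LK cells and 2.13% lower, and again 0 of the 7 was called. Chil3 came closest, at 155 and 67.4 CPM in LK cells against 14.1 and 6.62 CPM in LSK cells, a log2 difference of 3.39 ± 0.91 (edgeR adjusted p = 0.0655). Fcnb was at 14.1 and 4.02 CPM in LK cells and at 0.71 and 1.96 CPM in LSK cells (2.82 ± 1.16, edgeR adjusted p = 0.185). Cd177 was at 26.3 and 11.4 CPM in LK cells and at 5.32 and 3.68 CPM in LSK cells (2.05 ± 1.02, edgeR adjusted p = 0.268). For these 3 of the 7 genes every LK library lay above every LSK library, as for 29.8% of the genes tested. The means of Ltf were 11.2 and 10.9 CPM. DESeq2 called 0 of the 7 in this comparison (10.3% of all genes with an adjusted p), and at an unadjusted p under 0.05 there were 2, Chil3 and Fcnb, where 21.8% of the genes tested passed in either direction. With the library number within a treatment as a block, Chil3 was called (log2 difference 3.41, edgeR adjusted p = 9.83e-05), as it was with limma-voom (adjusted p = 0.0382). Without the block Chil3 was also called with LSK PBS library 1, 2 or 3 left out (edgeR adjusted p = 0.0266, 0.0459 and 0.0339). Chil3 was called without LK PBS library 1 as well (edgeR adjusted p = 0.0466), and Cd177 without LSK PBS library 2 (0.0478). These PBS libraries are not in this comparison and act only through the shared fit. Over the 18 alternatives run, Chil3 was called under 8 and Cd177 under 2.

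The difference between the responses of LK and LSK cells was tested as an interaction over the 10 libraries. It called 4 of 13839 genes (0.0289%) and 0 of the 7 by edgeR, 1 of the 7, Chil3, had an unadjusted p under 0.05 (14.2% of the genes tested did), and DESeq2 called 0 (2.78% of all genes with an adjusted p). Chil3 responded more in LK cells by 3.66 ± 1.37 on the log2 scale (edgeR adjusted p = 0.282), and Cd177 by 2.62 ± 1.36 (adjusted p = 0.4). With the library number within a treatment as a block, 23 genes were called higher and 1 lower, and the difference for Chil3 was called (3.53, edgeR adjusted p = 0.0394), as it was without a filter on low counts (adjusted p = 1.78e-07). With single libraries left out and no block, none of the 7 was called, and the difference ranged from 1.66 (without LSK PBS library 1) to 5.03 for Chil3. Without LSK PBS library 2 it was 0.39 for Cd177 and 0.28 for Fcnb, and the highest values were 3.2 and 2.63. For Cd177 and Fcnb the responses of LK and LSK cells were thus not shown to differ, and for Chil3 the call depended on the fit. The responses share no libraries, but the population contrasts share theirs with the treatment contrasts.

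The late granule genes were set beside genes of earlier and later neutrophil stages. Of 6 primary granule genes, 6 were called higher with IL-1β in LK cells and 4 in LSK cells, with median log2 fold changes of 2.1 and 2.2 against -0.03 and -0.06 over all genes tested. Their summed level was 4552 to 9854 CPM in LK cells with PBS and 22039 and 18934 CPM with IL-1β, most of it Mpo. Elane, which encodes neutrophil elastase, rose by 3.32 ± 0.39 on the log2 scale in LSK cells (edgeR adjusted p = 0.0115) and by 1.8 ± 0.37 in LK cells (edgeR adjusted p = 0.0374). The standard errors of the 6 genes in LK cells were 0.28 to 0.37, against 0.47 to 1.5 for the 7 late genes.

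Of 14 other secondary and tertiary granule genes, 9 were tested in LK cells and 5 called higher, and 10 were tested in LSK cells and 2 called higher, Lcn2 and Hp. Lcn2 stood at 1.59, 0.465 and 1.75 CPM in LSK cells with PBS and at 119.7 and 146 CPM with IL-1β (log2 fold change 6.71 ± 0.44, edgeR adjusted p = 0.000497), and rose in LK cells by 5.65 ± 0.31 (edgeR adjusted p = 0.000541). Its replicates were closer than those of Ltf, the lactoferrin gene of the same granule. Pglyrp1, which encodes a peptidoglycan-binding protein, and Cybb, a subunit of the NADPH oxidase, were called in LK cells. Olfm4 had 0 counts in all 14 libraries.

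Of 15 mature neutrophil genes, 12 were tested in LK cells and 8 called higher, and 11 were tested in LSK cells and 1 called higher, Lrg1. The list summed to 90.1, 113 and 151 CPM in LK cells with PBS and to 929 and 598 CPM with IL-1β, with Anxa1 as the most abundant gene at 393 and 231 CPM with IL-1β. S100a8 and S100a9, which encode the calprotectin subunits, stood at 154 and 85.7 CPM and at 119 and 48.4 CPM in LK cells with IL-1β, against at most 2.8 and 3.43 CPM with PBS. The defining marker Ly6g had 0 counts in every library, and Retnlg, a marker of mature neutrophils, stayed at or under 1.66 CPM. In LK cells Retnlg was at 0.0798, 0 and 0 CPM with PBS and at 0.93 and 0.322 CPM with IL-1β, too low to be tested, and Itgb2l, a neutrophil integrin gene, was called higher, from 0.0798, 0 and 0 CPM to 5.18 and 1.29 CPM (edgeR adjusted p = 0.00968). The lineage antibodies that the study's methods list for progenitor analysis include Gr-1, a surface marker of mature neutrophils, so a Lin- gate of that kind would remove such cells. The part of any that remained in the rise of Fcnb and Cd177 was not tested.

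**Figure D4:**
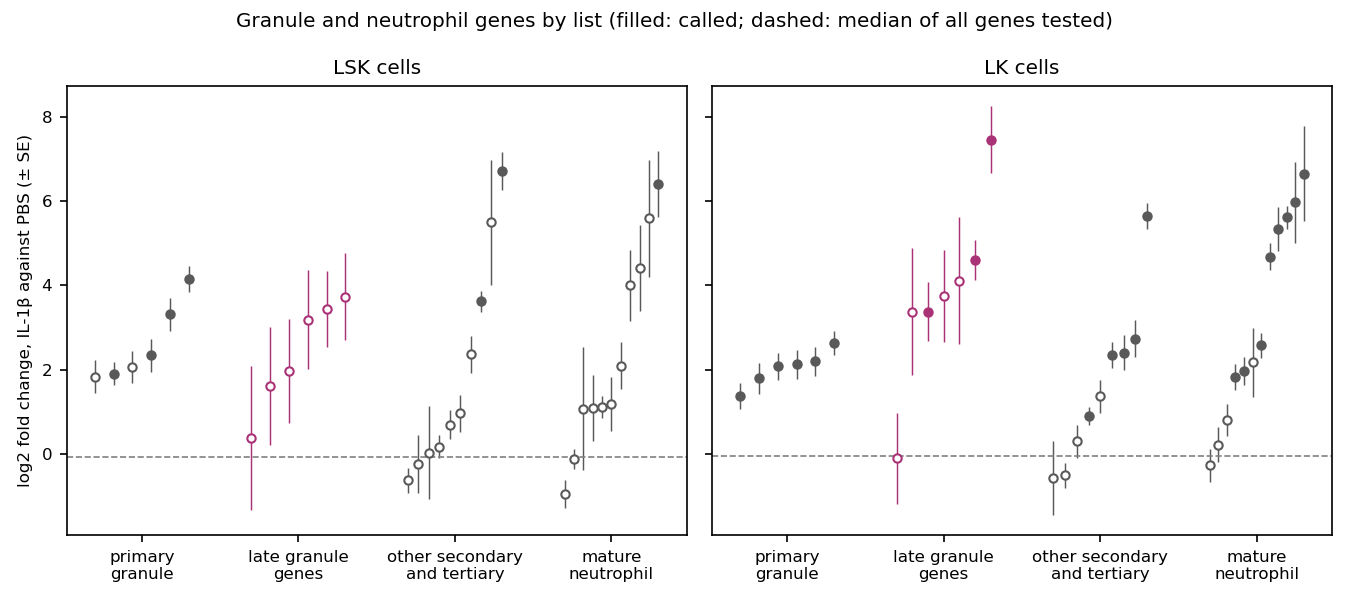
Log2 fold change of IL-1β against PBS (vertical axis, with SE bars) for each tested gene of 4 lists in LSK cells (left) and LK cells (right). Filled points were called and the dashed line is the median of all genes tested. The 6 primary granule genes lay between 1.38 and 4.16 with short bars, whereas the late granule genes spread from -0.1 to 7.45 with long bars.

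Transcription factors of the granulocyte lineage changed in LK cells. Of 10 genes, 9 were tested, 6 were called higher and 2 lower. Cebpe stood at 12.7, 14 and 25.2 CPM with PBS and at 85.7 and 67.1 CPM with IL-1β (log2 fold change 2.15 ± 0.3, edgeR adjusted p = 0.00885). Gfi1, a repressor needed for neutrophil development, rose by 2.07 ± 0.28 (edgeR adjusted p = 0.00957), as did Cebpa, Cebpb, Cebpd and Spi1. Irf8 and Klf4, which favour monocytes, fell by 2.59 and 3.25 on the log2 scale (edgeR adjusted p = 0.0122 and 0.0205). In LSK cells Cebpe stood at 3.03, 0.155 and 4.43 CPM with PBS and at 28.6 and 25.7 CPM with IL-1β, and 1 of the 9 factors tested, Irf8, was called (lower). In MSC, 7 of the factors were tested and Cebpb and Cebpd were called higher.

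Of 10 markers of eosinophils, basophils and mast cells, 10 were tested in LK cells, 6 were called higher and all 10 had both IL-1β libraries above all PBS libraries. Their sum was 542, 395 and 219 CPM in LK cells with PBS and 3997 and 2334 CPM with IL-1β, with Prg2, the eosinophil major basic protein, at 1301 and 805 CPM as the most abundant (not called, edgeR adjusted p = 0.0641). LK IL-1β library 1 had the higher sum, as it did for the late granule genes. In LSK cells 8 of the 10 were tested and 2 called higher. The part of these cells in the level of the 7 genes was not tested.

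The genes whose profile was most like the mean profile of the 7 over the 10 sorted libraries were, among 11771 other protein-coding genes, Trnp1 (Pearson r = 0.95), Alox5 (0.94), S100a9 (0.93), Tdrd5 (0.92), Atrn (0.92), Nrg4 (0.91), Tent5a (0.91) and S100a8 (0.9). Alox5, which encodes the 5-lipoxygenase of leukotriene synthesis, averaged 14.2 CPM in LSK and 17.5 CPM in LK cells with PBS and 24.3 and 45.2 CPM with IL-1β. Trnp1 averaged 0.0757 and 0.122 CPM with PBS and 3.7 and 15.1 CPM with IL-1β. Like Ltf and Ngp, both genes were higher in LK IL-1β library 1, at 58.1 and 28.4 CPM, than in library 2, at 32.3 and 1.77 CPM. S100a9 and S100a8 also belong to the mature neutrophil list. The likeness rests on 10 libraries that differ by treatment and population, and it was the measure by which these genes were picked.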

How the data were processed

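The authors trimmed reads with fastp 0.20.0, aligned them with HISAT2 2.0.1 to GRCm38, used SAMtools 1.10 and, per the file headers, counted read pairs per Ensembl gene with featureCounts 2.0.2, reverse-stranded and without normalization. The submitters' processing notes also name DESeq2, and the methods name GenomicAlignments for counting. The deposited values are raw counts. By default featureCounts leaves out read pairs that fit several places or genes. The MSC table names a further IL-1β library without a column of counts, which was not analysed here. Symbols matched 55141 of 55487 identifiers.

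The counts were tested with edgeR 4.0.16 in R 4.3.3 (filterByExpr, TMM, estimateDisp, robust glmQLFit, glmQLFTest), two-sided, within each population with treatment as the only factor, and for LK against LSK cells and the interaction over the 10 sorted libraries. The Benjamini-Hochberg adjustment ran over all genes tested. The study's thresholds were used for calls, an adjusted p below 0.05 with a log2 change beyond 0.5 either way. The SE is the size of the log2 fold change divided by the square root of F. A count of 0 allows up to 3 counts. Copies made by PCR cannot be told from separate molecules, so intervals and floors cover counting error only.

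A chi-square test of counts over genes found each of the 10 replicate pairs to differ beyond sampling noise (chi-square per degree of freedom 4.91 to 103.89). LSK and LK libraries of one number and treatment deviated together from their group means (correlations 0.1002 to 0.47 over 5 pairs, each above the threshold of 0.1, though only just for both IL-1β pairs, whose values are equal by construction), so blocked values stand beside the LK against LSK results they change. This pairing is a hint from the data, since the labels do not state it. The IL-1β value of 0.1002 was no higher than the 0.126 between LSK PBS and IL-1β libraries numbered 1, which are not taken as paired. The IL-1β libraries alone thus give no more than a weak hint. Depth was lowest in LSK IL-1β library 2 (4393233 read pairs), where 1 count is 0.245 CPM. The tests were checked on simulated data. DESeq2 1.42.0, limma-voom (limma 3.58.1), scaling by upper quartiles or by DESeq2's size factors, testing without a filter, a filter of at least 10 counts in 2 libraries, thinned counts, no fold-change threshold, a joint fit, a replicate block and each library left out were the alternatives. Leaving out both libraries numbered 1 was added after the data were seen.

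The 7 genes and the marker lists (primary granule, other secondary and tertiary granule, mature neutrophil, granulocyte transcription factors, close relatives, monocyte and macrophage, eosinophil with basophil and mast cell, erythroid, stem and early progenitor, lymphoid, mesenchymal) were chosen with earlier results of these data known. The genes named are those 7, genes of these lists and the 8 most alike in profile. Promoters come from RefSeq (GRCm38.p6). Figures were drawn with matplotlib 3.10.9.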

Additional observations from a re-analysis of the deposited data

Results flagged for a closer look

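Ltf was ordered differently in the sorted cells and in the MSC cultures, although it was not called in LSK or LK cells and was too low to be tested in MSC. Both IL-1β libraries lay above all PBS libraries in LSK and LK cells, and both lay below both PBS libraries in MSC. On the log2 scale (CPM with a prior count of 2) the difference between the IL-1β and PBS means was larger in LSK cells than in MSC by 4.83 and larger in LK cells by 5.51. This difference was not tested, and in MSC it rests on 10 counts with PBS and 4 with IL-1β.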

How the results depend on the processing

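The number of the 7 genes called was small and moved with the setting. The number of all genes called moved too, so a count of the 7 cannot be read alone. Apart from settings that leave out libraries, it ran from 421 to 1462 higher in LK cells and from 19 to 547 higher in LSK cells. Counts below are of the 7 genes. In LK cells (3 called) it was 6 with the replicate block, 1 without both libraries numbered 1, and 1 to 4 with single libraries left out. The lowest value, 1, came without LK IL-1β library 1 and was Cd177. Cd177 was called under 14 of 15 alternatives, Chil3 under 13 and Fcnb under 10, not in the joint fit. In LSK cells (0 called) the number was 2 with DESeq2 (Ltf, Chil3), 3 with no filter (Ltf, Ngp, Chil3), 2 with the replicate block (Ngp, Chil3), 1 in the joint fit (Chil3) and 0 to 1 with single libraries left out. In MSC it was 0 to 2 with single libraries left out, where the lone library of a group is assumed to vary like the other group, with 0 without either IL-1β library, and 2 under every other alternative run. LK against LSK cells with IL-1β gave 1 with limma-voom, 2 with no filter, 1 with thinned counts, 1 with the replicate block and 0 to 2 with single libraries left out, against 0. The interaction gave 1 with no filter and 1 with the replicate block (Chil3), against 0. The contrast with PBS stayed at 0 under all alternatives run. Mmp8 changed sign with single libraries left out, between -5.34 and 1.22 in LSK cells and between -6.16 and 0.82 in LK cells, where 1 group was left at 0 counts in some fits. The cause of the other shifts was not tested.

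Between treatments the replicate numbers were not shown to pair the samples, with correlations of deviations of -0.1 to 0.13, so the block results of the LSK and LK treatment comparisons stand here only. The replicate block changed no call of the 7 genes in LK against LSK cells with PBS.

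The number of all genes called moved by more than 1.5 times for most comparisons. Apart from settings that leave out libraries, it ranged from 19 to 547 higher and 2 to 681 lower in LSK cells (42 and 41), from 421 to 1462 and 68 to 869 in LK cells (869 and 330), from 817 to 1439 and 539 to 915 in MSC (945 and 570), from 122 to 694 and 60 to 716 for LK against LSK cells with IL-1β (314 and 295), and from 0 to 228 and 1 to 170 for the interaction (3 and 1). With single libraries left out the ranges were wider for several: 3 to 280 higher and 0 to 200 lower in LSK cells, 61 to 1499 and 5 to 910 in LK cells, 38 to 2038 and 0 to 1781 in MSC, 1064 to 2182 and 1677 to 2771 for LK against LSK cells with PBS (1716 and 2678), 69 to 947 and 20 to 920 with IL-1β, and 0 to 169 and 0 to 167 for the interaction. Upper-quartile factors gave 817 higher and 831 lower in MSC, and 247 and 394 for LK against LSK cells with IL-1β.

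With 2 IL-1β libraries per group and 0 to 66 counts per PBS library of sorted cells for these genes, moderate changes were not detectable at this depth.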

Other observations

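Lists of other lineages were read in the LSK and LK libraries. Of 12 erythroid genes, 12 were tested in LK cells and 5 were called lower with IL-1β, among them Klf1, a master factor of red cells (log2 fold change -1.13 ± 0.16, edgeR adjusted p = 0.00554). In LSK cells 10 were tested and 0 called by edgeR, with 2 under 0.05 by the unadjusted p, where 18.5% of all genes tested were. Among the stem and early progenitor genes, the stem cell gene Hlf (log2 fold change -2.08 ± 0.31, edgeR adjusted p = 0.0225) and the cytokine receptor Flt3 (-2.42 ± 0.35, edgeR adjusted p = 0.0207) were called lower in LSK cells, and Flt3 was also called lower in LK cells (-2.39 ± 0.32, edgeR adjusted p = 0.00518). Of 9 lymphoid genes, Dntt, which encodes the terminal transferase of early lymphoid cells, was called lower in both. Its log2 fold change was -5.36 ± 0.71 in LSK cells (edgeR adjusted p = 0.0161), and in LK cells it stood at 3.11, 4.95 and 5.96 CPM with PBS and had no count with IL-1β.

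Of 13 monocyte and macrophage genes, 11 were tested in LK cells and 2 were called lower, Csf1r (log2 fold change -2.49 ± 0.4, edgeR adjusted p = 0.0135) and Mpeg1. In LSK cells 11 were tested and 0 called by edgeR, with 3 under 0.05 by the unadjusted p, where 18.5% of all genes tested were. Of the 8 close relatives of the 7 genes, 2 were tested in LSK and 1 in LK cells and none was called. Mmp9, the gelatinase of tertiary granules, was tested in LSK cells, at 0.227, 0 and 0 CPM with PBS and 5.44 and 1.72 CPM with IL-1β (edgeR adjusted p = 0.115). Of 11 mesenchymal genes, 3 were tested in each sorted population. In LSK cells edgeR called 0, with 2 under 0.05 by the unadjusted p (18.5% of all genes tested). Thy1, also a lymphoid surface gene, was called higher in LK cells.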
